A study of Mus musculus with 12 samples.

Results

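RNA sensors and their adaptors were followed through 12 RNA sequencing libraries of mouse fibroblasts. The 7 genes were chosen by symbol as the RIG-I-like receptors Ddx58, Ifih1 and Dhx58, the ubiquitin ligase Trim25, the endosomal receptor Tlr3, and the adaptors Mavs and Ticam1. They are 7 of the 54532 genes listed in each count file. All 7 passed the filter on low counts, which left 16840 genes to test.

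As background, cells recognise foreign RNA by its form and place. RIG-I, the product of Ddx58, binds short double-stranded RNA with a 5′ triphosphate in the cytosol, and MDA5, the product of Ifih1, binds long double-stranded RNA. Both signal through MAVS on the outer mitochondrial membrane, whereas TLR3 binds double-stranded RNA in endosomes and signals through TRIF, the product of Ticam1. Both routes reach the kinase TBK1 and the factors IRF3 and NF-kB, which turn on interferon beta and inflammatory genes. Interferon in turn raises many antiviral genes, among them the RIG-I-like receptors, Trim25 and Tlr3. In fibroblasts the cytosolic receptors are the best known route to interferon after infection with RNA viruses.

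The cells were taken as L929, an established mouse fibroblast line, and RNA was taken 6 hours after transfection. The labels give 5 stimulated groups, transfected with HT-DNA, hpRNA, G3-YSD or HSV or stimulated with cGAMP, and 1 mock group described as untreated, each with 2 libraries. cGAMP is the messenger molecule that the DNA sensor cGAS makes; the other abbreviations stand as the labels write them. No genotype, transgene or dose is given, and all groups were taken to share the 1 cell line. Experiments were made in duplicate, with no word on how the libraries of a label were separated. What the p-values measure is thus a spread between libraries that may in part be technical. The last digit of a sample title was taken as a library number, so G3-YSD 1 and G3-YSD 2 are the libraries of one label. For HSV the digits could also name virus types. The source name is L929 cells for cGAMP, G3-YSD and HSV and a fibroblast line without that name for HT-DNA, hpRNA and mock. A batch or cell line that follows this wording cannot be told apart from the treatment in cGAMP, G3-YSD or HSV against mock.

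Libraries did not group by label. The distance between 2 libraries was taken as a noise ratio, the squared difference in counts over that expected from counting noise, where 1 is counting noise alone. The nearest library to each of the 12 carried another label and the same number, at ratios of 1.41 to 2.04, whereas libraries of one label lay at 3.52 to 82.6. The closest libraries were hpRNA and mock, HT-DNA and cGAMP, and G3-YSD and HSV, for both numbers. The libraries labelled mock differed in genes that interferon raises, where mock 1 had 2.1 CPM of Ifit1 and 3.13 CPM of Isg15, and mock 2 had 486 CPM of Ifit1 and 216 CPM of Isg15. Whether each title belongs to its library was not tested, so a comparison with mock is one with the libraries so labelled. Total counts ran from 12650790 to 18912400. Genes detected ran from 23909 to 26496 in the G3-YSD and HSV libraries, against 21635 to 22550 in the other 8. Of 10 fibroblast markers, 7 stood at 5 CPM or more in every library, Col3a1 was at 4.9 CPM in HSV 1, its lowest library, and Thy1 and Lox reached at most 0.488 and 1.0 CPM. CPM here are counts scaled to a common library size, with edgeR's TMM factors.

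Promoter windows of 4 members are shown, those of Ddx58, Ifih1 and Tlr3, which held a match to a motif, and that of Ticam1, which held none. They come from RefSeq (GRCm38.p6) and run 250 bases before to 50 bases after the start, 5′ to 3′ on the gene's strand; 6 of the 7 members had a window, Dhx58 being the other one. Capitals mark a match, on either strand, to the core of the interferon-stimulated response element (GAAA, any 2 bases, GAAA) in Ddx58 and Ifih1, and to the NF-kB motif in Tlr3.
Ddx58, chr4:40239776-40240075, minus strand: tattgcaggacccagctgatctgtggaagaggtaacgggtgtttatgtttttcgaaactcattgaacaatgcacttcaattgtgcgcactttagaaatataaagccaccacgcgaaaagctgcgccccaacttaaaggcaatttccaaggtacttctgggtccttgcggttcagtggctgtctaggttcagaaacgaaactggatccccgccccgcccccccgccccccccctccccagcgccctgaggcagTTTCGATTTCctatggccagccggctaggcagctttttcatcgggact
Ifih1, chr2:62646206-62646505, minus strand: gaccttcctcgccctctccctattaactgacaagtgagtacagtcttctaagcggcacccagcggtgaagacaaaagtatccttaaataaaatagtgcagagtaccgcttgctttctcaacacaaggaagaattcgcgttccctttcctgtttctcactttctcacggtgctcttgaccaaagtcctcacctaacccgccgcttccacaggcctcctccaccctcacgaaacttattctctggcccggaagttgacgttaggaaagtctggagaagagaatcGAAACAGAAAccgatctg
Tlr3, chr8:45410331-45410630, minus strand: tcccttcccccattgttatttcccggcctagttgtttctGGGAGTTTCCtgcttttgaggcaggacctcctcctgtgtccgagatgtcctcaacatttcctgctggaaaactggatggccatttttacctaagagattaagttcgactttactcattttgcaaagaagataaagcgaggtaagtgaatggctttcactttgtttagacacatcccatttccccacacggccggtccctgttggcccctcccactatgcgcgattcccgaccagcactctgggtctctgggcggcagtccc
Ticam1, chr17:56276718-56277017, minus strand: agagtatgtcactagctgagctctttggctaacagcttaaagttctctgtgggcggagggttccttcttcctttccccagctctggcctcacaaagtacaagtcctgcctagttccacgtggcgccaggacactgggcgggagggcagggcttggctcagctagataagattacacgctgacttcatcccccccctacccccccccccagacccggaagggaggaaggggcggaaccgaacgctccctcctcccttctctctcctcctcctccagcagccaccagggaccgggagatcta
The match in Ddx58 was TTTCGATTTC, the reverse strand of the core, beginning 3 bases into the transcript. In Ifih1 it was GAAACAGAAA, beginning 33 bases into the transcript. In Tlr3 the NF-kB match was GGGAGTTTCC, at position -211 from the start. The whole Tlr3 window lies within the gene span given below, which reaches 45411080 on the minus strand. Its RefSeq start is thus not the outermost annotated start. The window of Ticam1 and those of Mavs and Trim25 held no match to either motif. The motif TGANTCA of AP-1 and the GAS motif TTCNNNGAA of STAT factors, searched on both strands, had no match in the 6 windows. Over all 32851 windows of the table, 3.44% held the response element core, 4.51% the NF-kB motif, 7.81% the AP-1 motif and 8.3% the GAS motif. No matches overlapped in the members' windows, and a match describes letters only. Whether matches relate to the levels of the genes was not tested.

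The 5 inducible members, Ddx58, Ifih1, Dhx58, Trim25 and Tlr3, were high in the same libraries, which were not those of one label. All were highest in G3-YSD 1 and HSV 1. In mock, hpRNA, HT-DNA and cGAMP they were higher in library 2 of the label than in library 1, and in G3-YSD and HSV the order was the opposite. The adaptors Mavs and Ticam1 kept a narrow range in the 8 libraries labelled HT-DNA, hpRNA, cGAMP and mock and were lower in all 4 libraries labelled G3-YSD and HSV.

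**Figure D1:**
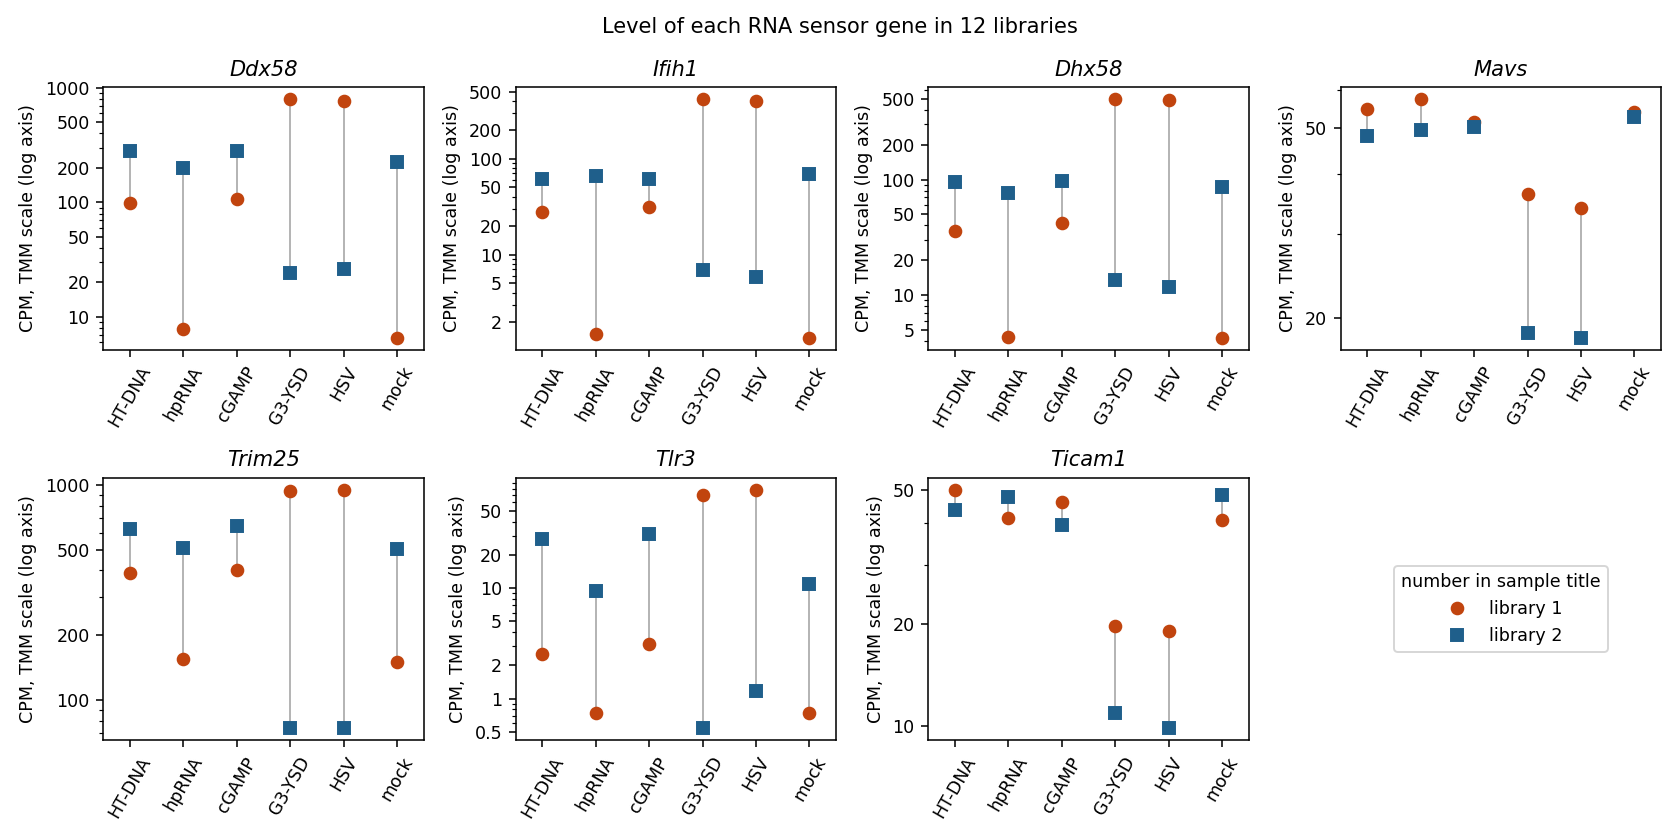
CPM on the TMM scale (log axis) of the 7 genes in each of the 12 libraries, by label, with circles for library 1, squares for library 2 and a grey line joining the libraries of a label. Ddx58 stood at 797 CPM in G3-YSD 1 and at 24.1 CPM in G3-YSD 2, whereas Mavs and Ticam1 in HT-DNA, hpRNA, cGAMP and mock lay within a narrow band.

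Ddx58 (ENSMUSG00000040296, mm10 chromosome 4, 40203773 to 40239828, minus strand) encodes RIG-I. Its level was 98.2 and 282 CPM under HT-DNA for libraries 1 and 2, 7.87 and 199.8 under hpRNA and 107 and 283 under cGAMP, against 6.59 and 226 CPM under mock. G3-YSD 1 and 2 had 797 and 24.1 CPM, and HSV 1 and 2 had 769 and 26.4 CPM. Every stimulated library was thus above mock 1. The HT-DNA, cGAMP, G3-YSD and HSV labels each had 1 library above and 1 below mock 2, and both hpRNA libraries were below it. Within a label the higher library exceeded the lower by 2.65 times in cGAMP and 2.87 times in HT-DNA, and by 25.4 to 34.2 times in the other 4 labels.

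Ifih1 (ENSMUSG00000026896, chromosome 2, 62595798 to 62646255, minus strand) encodes MDA5. It stood at 27.8 and 60.9 CPM under HT-DNA, 1.48 and 66.2 under hpRNA and 31.5 and 60.7 under cGAMP, against 1.36 and 68.3 CPM under mock. The G3-YSD libraries had 416 and 6.92 CPM and the HSV libraries 401 and 5.78 CPM. Mock 2 was above both libraries of HT-DNA, hpRNA and cGAMP, while mock 1, with 24 counts, was the lowest of all 12. No other member ranged as widely, with a highest level of 305 times the lowest.

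Dhx58 (ENSMUSG00000017830, chromosome 11, 100694884 to 100704271, minus strand) encodes LGP2, a RIG-I-like helicase that lacks the signalling domains and modulates the other two receptors. Its level was 36.1 and 95.3 CPM under HT-DNA, 4.28 and 75.9 under hpRNA and 42.0 and 97.3 under cGAMP, against 4.26 and 85.8 CPM under mock. G3-YSD had 497 and 13.6 CPM and HSV had 485 and 11.7 CPM. The order of libraries was that of Ddx58 except that G3-YSD 2 was above HSV 2. An antisense gene, Dhx58os, shares 141 bases of exon with Dhx58 and had 428 counts over the 12 libraries, beside 24073 for Dhx58; since the strand setting of the counting is not given in the sources used here, reads of the shared part cannot be assigned.

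Trim25 (ENSMUSG00000000275, chromosome 11, 88999376 to 89020293, plus strand) encodes a ligase that attaches ubiquitin chains in the RIG-I pathway. It had 388 and 622 CPM under HT-DNA, 156 and 508 under hpRNA and 401 and 641 under cGAMP, against 150.3 and 501 CPM under mock. In G3-YSD it had 936 and 74.0 CPM and in HSV 948 and 74.6 CPM. The libraries G3-YSD 2 and HSV 2 were here the lowest of all, below mock 1, whereas for Ddx58, Ifih1 and Dhx58 they were above mock 1 and hpRNA 1. Its range, 12.8 times from lowest to highest, was the narrowest of the 5 inducible members.

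Tlr3 (ENSMUSG00000031639, chromosome 8, 45395665 to 45411080, minus strand) encodes the endosomal receptor of double-stranded RNA. It had 2.55 and 28.0 CPM under HT-DNA, 0.742 and 9.46 under hpRNA and 3.14 and 30.9 under cGAMP, against 0.739 and 10.8 CPM under mock. G3-YSD had 69.8 and 0.538 CPM and HSV 77.9 and 1.16 CPM. The low values rest on few reads, 13 counts in mock 1 and hpRNA 1, 7 in G3-YSD 2 and 14 in HSV 2, so the order among these 4 libraries is not resolved by their counts. An antisense gene, Gm45542, shares 381 bases of exon with Tlr3 and had 0 counts.

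Among the receptors, HT-DNA and cGAMP stood differently over mock in the 2 libraries. HT-DNA 2 and cGAMP 2 had 28.0 and 30.9 CPM of Tlr3, against 10.8 CPM in mock 2, ratios of 2.59 and 2.87. For Ddx58 these ratios were 1.25 and 1.26, for Dhx58 1.11 and 1.13, and for Ifih1 0.892 and 0.888. In library 1 Tlr3 had the lowest ratios of these genes over mock 1, 3.45 and 4.25, and Ifih1 the highest, 20.4 and 23.1. Those of Ddx58 were 14.9 and 16.2, and those of Dhx58 8.46 and 9.86. Mock 1 had 13 counts of Tlr3 and 24 of Ifih1, so these ratios rest on few reads. No test was made of these differences between genes.

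The adaptor genes followed another pattern. Mavs (ENSMUSG00000037523, chromosome 2, 131234063 to 131248025, plus strand) had 54.9 and 48.2 CPM under HT-DNA, 57.5 and 49.5 under hpRNA and 51.5 and 50.4 under cGAMP, against 54.1 and 52.7 CPM under mock. In G3-YSD it had 36.4 and 18.6 CPM and in HSV 34.1 and 18.2 CPM, below each of the other 8 libraries. Ticam1 (ENSMUSG00000047123, chromosome 17, 56269319 to 56276786, minus strand) had 50.02 and 43.5 CPM under HT-DNA, 41.4 and 47.6 under hpRNA and 46.1 and 39.4 under cGAMP, against 40.6 and 48.2 CPM under mock. It had 19.7 and 10.9 CPM in G3-YSD and 19.1 and 9.83 CPM in HSV, again below the other 8 libraries without overlap. For both adaptors library 1 was the higher one in G3-YSD and HSV, as for the inducible members.

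**Figure D2:**
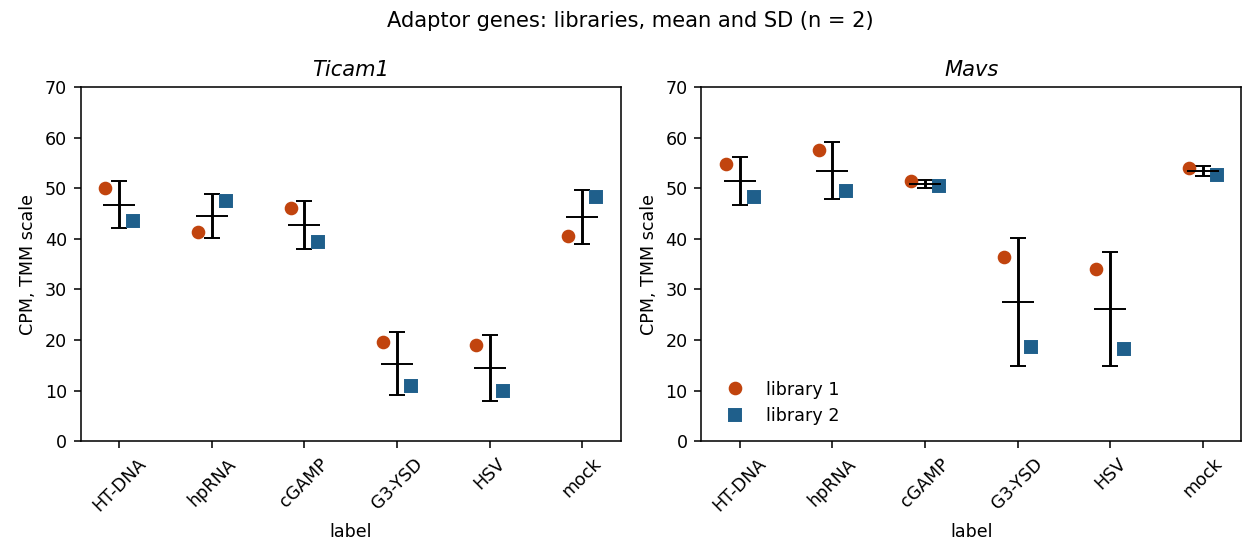
CPM on the TMM scale of Ticam1 and Mavs by label, with circles for library 1, squares for library 2, and bars for the mean and SD of the 2 libraries. Ticam1 averaged 15.3 CPM in G3-YSD and 14.5 CPM in HSV, against 44.4 CPM in mock, and Mavs averaged 27.5, 26.1 and 53.4 CPM in the same labels.

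Each stimulated label was compared with the libraries labelled mock. The edgeR quasi-likelihood test was fitted to all 12 libraries with 1 term per label, with p-values adjusted by Benjamini-Hochberg over all genes tested and calls made under 0.05. Log2 fold changes are given with standard errors, taken as the absolute log2 fold change over the square root of the test's F statistic. Group means are given with SDs over 2 libraries.

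Ticam1 was the only member called, lower in both G3-YSD and HSV, so that 1 of 7 members was called in each comparison. Among all 16840 genes edgeR called 5.16% in G3-YSD against mock, 1.79% higher and 3.37% lower, and 5.2% in HSV against mock, 1.73% higher and 3.47% lower. The members' share thus rests on a single gene. It averaged 15.3 ± 6.22 CPM in G3-YSD and 44.4 ± 5.34 CPM in mock (SD, n = 2 each), with a log2 fold change of -1.53 (standard error 0.35, edgeR adjusted p = 0.0473). It averaged 14.5 ± 6.58 CPM in HSV, with a log2 fold change against mock of -1.61 (standard error 0.35, edgeR adjusted p = 0.0402). The 4 ratios of a G3-YSD library over a mock library ran from 0.227 to 0.485, and those of HSV over mock from 0.204 to 0.471. The 2 comparisons share the mock libraries. G3-YSD 1 and HSV 1 also lay at a noise ratio of only 2.04, and G3-YSD 2 and HSV 2 at 1.41. The HSV result is thus not independent of that in G3-YSD.

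Mavs averaged 27.5 ± 12.6 CPM in G3-YSD and 26.1 ± 11.3 CPM in HSV, against 53.4 ± 0.956 CPM in mock (SD, n = 2 each). Its log2 fold changes of -0.96 and -1.03, each with a standard error of 0.35, had edgeR adjusted p-values of 0.152 and 0.129. Without the filter on low counts Mavs was called as well, at -1.0 and -1.07 with adjusted p-values of 0.0335 and 0.0228. At an unadjusted p under 0.05 stood 2 of 7 members, Mavs and Ticam1, beside 24.2% of all genes in G3-YSD and 24.3% in HSV. They were also the 2 members whose libraries did not overlap with mock in either comparison, both lower, where 22.7% of all genes lay lower without overlap in G3-YSD and 22.8% in HSV.

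The Ticam1 call had limits. Leaving out G3-YSD 2, mock 1 or mock 2 gave log2 fold changes of -1.19, -1.66 and -1.41, while leaving out G3-YSD 1 gave -2.03. In HSV against mock, leaving out HSV 2, mock 1 or mock 2 gave -1.23, -1.73 and -1.48, and leaving out HSV 1 gave -2.19. The call was lost in these fits except without G3-YSD 1 or HSV 1. Calls over all genes fell in each of them, so the loss is not particular to Ticam1. Fitted on the 4 libraries of the labels alone, the values were -1.49 and -1.57 with edgeR adjusted p-values of 0.311 and 0.329. In those fits 0 genes of all were called. The median over all genes was 0.107 in G3-YSD and 0.105 in HSV on the log2 scale, and 0.243 and 0.257 with upper quartile scaling, under which Ticam1 stood at -1.41 and -1.48 with adjusted p-values of 0.0499 and 0.0449.

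Marker sums were also set beside each other for the G3-YSD and HSV libraries and the other 8. Endothelial sums stood apart, immune sums overlapped, and fibroblast sums were lower in library 1 and higher in library 2 of both labels. The 3 endothelial markers Pecam1, Cdh5 and Kdr summed to 3.08 to 11.1 CPM in these 4 libraries, against 0.244 to 0.798 CPM in the other 8, with Cdh5 at 0 in both mock libraries. Kdr carried the sum in G3-YSD 1 and HSV 1, at 10.5 and 8.15 CPM, and Pecam1 in G3-YSD 2 and HSV 2, at 2.92 and 3.47 CPM. The 10 fibroblast markers had sums of 3056 and 4949 CPM for G3-YSD 1 and 2 and of 2872 and 4855 CPM for HSV 1 and 2, against 3410.3 to 3665 CPM in the other 8. Sums of 7 immune markers ran from 61.9 to 79.7 CPM in the 4 libraries, against 72.5 to 94.6 CPM in the other 8, nearly all of it Cd68, and 3 epithelial markers never summed above 0.981 CPM. The part of these features, and of the higher number of genes detected, in the level of Ticam1 was not tested. In RNA from whole cultures, fewer cells with the transcript and less of it per cell cannot be told apart.

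In the fit of all 12 libraries with 1 term per label, the 5 inducible members were not called in any comparison. Their standard errors were above 1 on the log2 scale. In G3-YSD against mock the log2 fold changes were 1.82 for Ddx58, 2.6 for Ifih1, 2.5 for Dhx58, 0.63 for Trim25 and 2.61 for Tlr3, with standard errors of 2.17, 2.44, 2.16, 1.32 and 2.45. The 4 library ratios behind the value of Ifih1 ran from 0.101 to 305, and those behind Tlr3 from 0.0499 to 94.5. In HSV against mock the log2 fold changes were 1.78 for Ddx58, 2.55 for Ifih1, 2.46 for Dhx58, 0.65 for Trim25 and 2.78 for Tlr3. The edgeR adjusted p-values of these genes lay between 0.489 and 0.787 in G3-YSD and between 0.495 and 0.784 in HSV. Such spreads leave a change of several fold in either direction uncalled.

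**Figure D3:**
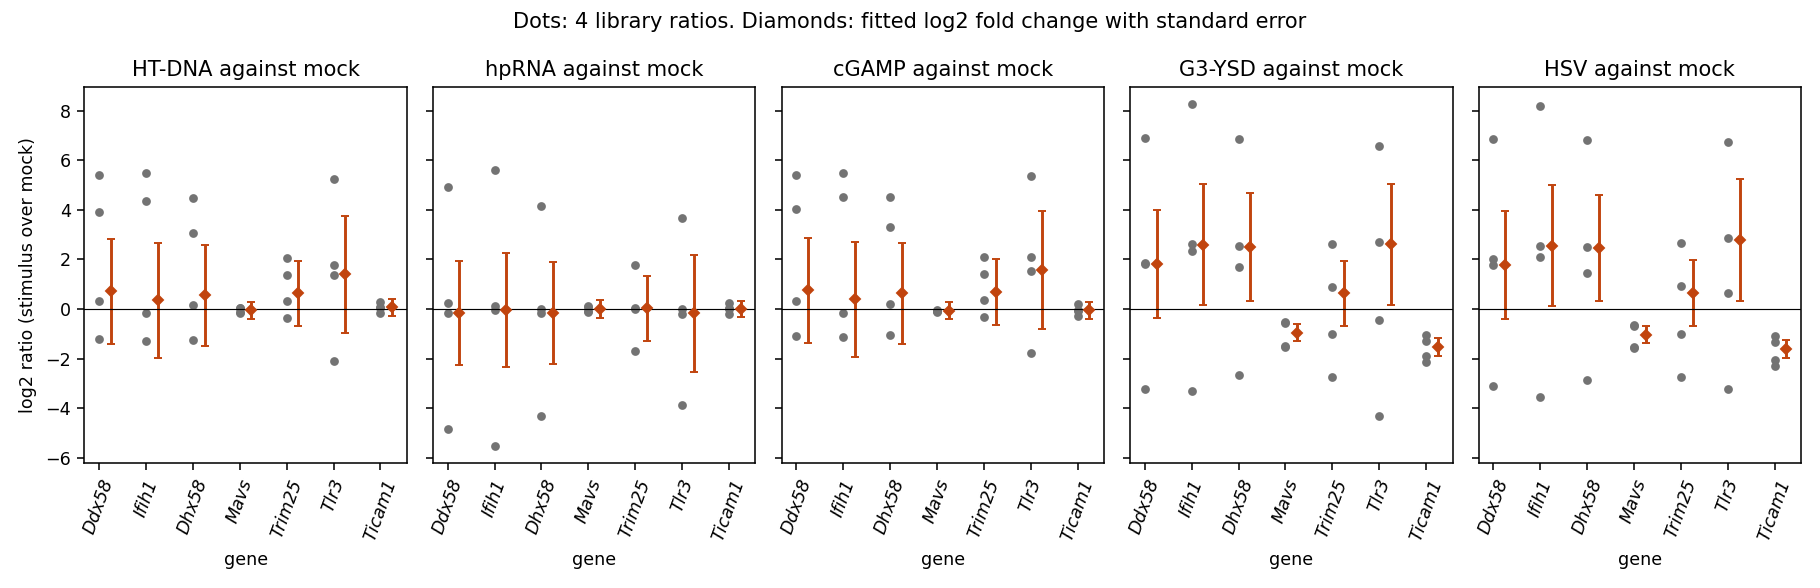
Log2 ratio over mock of the 7 genes for each stimulated label. Grey dots are the 4 ratios of single libraries and orange diamonds the fitted log2 fold change with its standard error; Ticam1 in G3-YSD and HSV, at -1.53 and -1.61, is the one member whose call passed.

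HT-DNA, hpRNA and cGAMP against mock gave no call among the members in the fit without a term for the library number. By edgeR 0 of 7 members were called in each comparison, with 0 at an unadjusted p under 0.05 and 0 called by DESeq2. Of all genes 0.0% were called in each of these comparisons, with 62 (0.368%), 58 (0.344%) and 99 (0.588%) of 16840 at an unadjusted p under 0.05 in HT-DNA, hpRNA and cGAMP, and 1, 1 and 0 called by DESeq2. Tlr3 had the highest log2 fold change of the members in HT-DNA, 1.4 (standard error 2.37), and in cGAMP, 1.56 (standard error 2.38). Its 4 ratios ran from 0.236 to 37.9 in HT-DNA and from 0.291 to 41.9 in cGAMP. With a term for the library number in the 8 libraries of these labels and mock, Tlr3 stood at 1.45 and 1.64. Both values had a standard error of 0.16 and were called by edgeR, though the numbers were not shown to pair the libraries. Without that term Ddx58 stood at 0.71 and 0.75 in the same comparisons, Ifih1 at 0.35 and 0.4, Dhx58 at 0.55 and 0.63, and Trim25 at 0.63 and 0.68.

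In hpRNA against mock the log2 fold changes of all 7 members lay between -0.17 and 0.03. Those of Ddx58, Ifih1, Dhx58 and Tlr3 carried standard errors of 2.05 to 2.36. Mavs and Ticam1 were the best resolved, with values of 0.0 and standard errors of 0.35 and 0.34. In cGAMP Mavs averaged 50.9 ± 0.773 CPM, against 53.4 ± 0.956 CPM in mock (SD, n = 2 each), with all 4 ratios from 0.932 to 0.977. It was the one member without overlap there, where 15.1% of all genes lay lower without overlap, and its log2 fold change was -0.07 (standard error 0.35). In HT-DNA and hpRNA 0 of 7 members were without overlap, beside 13.8% of all genes higher and 14.0% lower in HT-DNA, and 10.5% and 10.3% in hpRNA.

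HT-DNA was also compared with hpRNA, as a DNA label beside an RNA label. Tlr3 averaged 15.3 ± 18.0 CPM under HT-DNA and 5.1 ± 6.17 CPM under hpRNA (SD, n = 2 each), and its log2 fold change was 1.58 (standard error 2.38). Ddx58 averaged 190.2 ± 130.1 CPM under HT-DNA and 104 ± 136 CPM under hpRNA, with a log2 fold change of 0.87 (standard error 2.12). Mavs and Ticam1 stood at -0.05 and 0.07 with standard errors of 0.35 and 0.34. By edgeR 0 of 7 members and 0.0% of all genes were called, with 0 members and 77 of 16840 genes (0.457%) under 0.05 before adjustment; DESeq2 called 0 members and 1 gene. The groups of all 7 members overlapped, where 13.1% of all genes were higher and 15.4% lower without overlap.

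The median log2 fold change of the 7 members was 0.55 in HT-DNA, -0.04 in hpRNA, 0.63 in cGAMP, 1.82 in G3-YSD and 1.78 in HSV against mock, and 0.61 in HT-DNA against hpRNA. That of all genes lay between -0.001 and 0.107. The members' medians are set by the inducible genes, whose libraries overlapped between labels in every comparison.

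Per kb of exon, Trim25 was the most abundant member in 12 of 12 libraries and Tlr3 the least abundant in 10. The median over the 12 libraries was 78.3 CPM per kb for Trim25, 21.8 for Ddx58, 18.0 for Dhx58, 14.9 for Mavs, 13.7 for Ticam1, 5.65 for Ifih1 and 1.21 for Tlr3. By the length of the longest transcript Trim25 was first in 10 of 12 libraries, with Dhx58 and Ddx58 above it in G3-YSD 1 and HSV 1. The neighbours Ddx58, Dhx58, Mavs and Ticam1 changed places between libraries. In mock 1 and hpRNA 1 the adaptors stood above every receptor, and in G3-YSD 1 and HSV 1 every receptor, Tlr3 included, stood above both adaptors.

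The ratio of receptor to adaptor therefore turned round between libraries. Ddx58 over Mavs, per kb, was 0.849 and 2.78 in HT-DNA, 0.065 and 1.91 in hpRNA, and 0.986 and 2.66 in cGAMP, against 0.0579 and 2.03 in mock. G3-YSD had 10.4 and 0.616, and HSV 10.7 and 0.69. Tlr3 over Ticam1, per kb, was 2.03 in G3-YSD 1 and 2.34 in HSV 1 and between 0.0103 and 0.452 in the other 10 libraries. Mavs over Ticam1, by contrast, stayed between 0.93 and 1.24 in the 8 libraries labelled HT-DNA, hpRNA, cGAMP and mock, and between 1.52 and 1.65 in the 4 labelled G3-YSD and HSV.

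Among the receptors the balance shifted as well. Ifih1 over Ddx58, per kb, was 0.451 in both G3-YSD 1 and HSV 1 and lay between 0.163 and 0.286 in the other 10 libraries. Tlr3 over Ddx58, per kb, was 0.0352 and 0.134 in HT-DNA, 0.128 and 0.0641 in hpRNA, and 0.0397 and 0.148 in cGAMP, against 0.152 and 0.0648 in mock. In G3-YSD it was 0.119 and 0.0302 and in HSV 0.137 and 0.0592. The ratio was high in HT-DNA 2 and cGAMP 2 and low in HT-DNA 1 and cGAMP 1, the opposite of mock and hpRNA. In mock 1, hpRNA 1, G3-YSD 2 and HSV 2 it rests on the few Tlr3 counts given above.

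**Figure D4:**
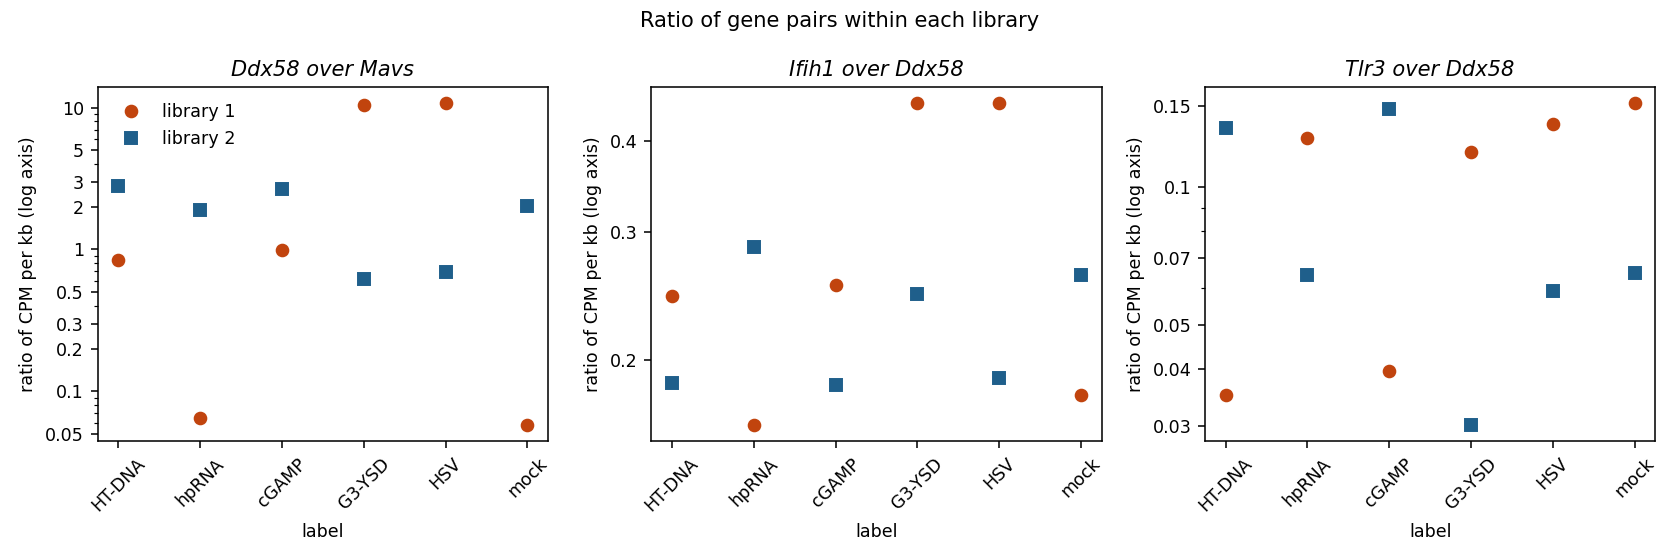
Ratios of CPM per kb of exon within each library (log axes) for Ddx58 over Mavs, Ifih1 over Ddx58 and Tlr3 over Ddx58, by label, with circles for library 1 and squares for library 2. Ddx58 over Mavs ran from 0.0579 in mock 1 to 10.7 in HSV 1, and Ifih1 over Ddx58 was highest, at 0.451, in G3-YSD 1 and HSV 1.

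The genes most like each member were found by the root mean square difference of gene-centred log2 CPM over the 12 libraries. Small values mean profiles alike in both the size and the order of their movements. Among the members Mavs and Ticam1 were the closest, at 0.31, followed by Ddx58 and Dhx58 at 0.352, Ddx58 and Ifih1 at 0.45, and Ifih1 and Dhx58 at 0.451. Tlr3 lay nearest to Dhx58, at 0.775. Trim25 was nearest to the adaptors, at 1.08 from Mavs and 1.14 from Ticam1, then at 1.24 from Dhx58 and 1.28 from Ddx58. Its libraries were nevertheless ordered like those of the inducible members, highest in HSV 1 and G3-YSD 1, whereas Mavs was highest in hpRNA 1. Distances between an inducible member other than Trim25 and an adaptor ran from 2.22 to 2.68. All libraries and their depth are shared by these values, which are descriptions.

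Outside the members, Ddx58 was most like Apol9a (0.291), Trim21 (0.291) and Samd9l (0.309). Dhx58 was most like Samd9l (0.258), H2-T24 (0.363) and Apol9a (0.417), and Ifih1 most like Trim34b (0.279), Apol9b (0.318) and Trim34a (0.327). Apol9a and Apol9b, and Trim34a and Trim34b, are near-identical gene copies that can share reads, so their separate values are uncertain. Trim25 was most like Pax5 (0.171), Trim56 (0.185) and Tcirg1 (0.248). Tlr3 was most like Bmp10 (0.378), which had 0 counts in several low libraries, Gvin1 (0.435) and Oas2 (0.435).

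The genes most like the adaptors, picked for that likeness over the same libraries, were lower in G3-YSD and HSV than in mock. In both labels library 1 was the higher one, as for the adaptors. The genes most like Mavs included Tcf20 (0.0513) and Dvl2 (0.0614), and Ticam1 was most like Pdxp (0.0945), Tubb4b (0.0949) and Pgp (0.0982). Tcf20 stood at 72.2 and 38.8 CPM in G3-YSD and 69.2 and 38.4 CPM in HSV, against 112 and 106 CPM in mock. Tubb4b stood at 222 and 125 CPM in G3-YSD and 199 and 120.5 CPM in HSV, against 439 and 476 CPM in mock.

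Pathway genes around the members were read from 4 lists holding 74 genes, of which 72 are in the files and 69 were tested. In G3-YSD against mock edgeR called 1 of 69 higher and 3 lower, and in HSV against mock 1 higher and 4 lower. These shares, 5.8% and 7.25% in either direction, lie near the 5.16% and 5.2% of all genes. At an unadjusted p under 0.05 stood 16 of 69 in each label, beside 24.2% and 24.3% of all genes, and DESeq2 called 9 in each, where it called 2208 and 2272 genes in all. The other comparisons gave 0 of 69, with 0 at an unadjusted p under 0.05 and 0 called by DESeq2. Of 23 genes of MAVS and TRIF signalling, 1 was higher and 2 lower in both labels. Of 19 negative regulators 1 was lower in both, of 14 other RNA-sensing and RNA-modifying genes 1 was lower in HSV, and of 13 cofactors of RIG-I and MDA5 none was called. The median log2 fold changes of these lists in G3-YSD were -0.05, 0.01, 0.46 and 0.21 in that order, and in HSV -0.09, -0.04, 0.39 and 0.2.

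The 5 genes called in either label are described by their roles. Traf2, which encodes a ubiquitin ligase adaptor recruited by MAVS, had 116 and 96.6 CPM in G3-YSD and 118 and 95.0 CPM in HSV, against 61.2 and 66.5 CPM in mock. Its log2 fold change was 0.74 in both, with edgeR adjusted p-values of 0.038 and 0.0364. Tradd, which encodes a death-domain adaptor that binds MAVS, had 12.5 and 9.61 CPM in G3-YSD and 11.4 and 9.66 CPM in HSV, against 24.7 and 21.2 CPM in mock. Its log2 fold changes were -1.06 and -1.12, with edgeR adjusted p-values of 0.0291 and 0.0241. Traf2 was thus higher and Tradd lower in every library of the 2 labels than in either mock library.

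Tbkbp1, which encodes a scaffold that binds TBK1, had 16.4 and 26.1 CPM in G3-YSD and 17.0 and 28.0 CPM in HSV, against 58.8 and 64.3 CPM in mock. It had log2 fold changes of -1.53 and -1.45 and edgeR adjusted p-values of 0.0233 and 0.0253. Smurf1, a ubiquitin ligase that promotes the degradation of MAVS, had 96.0 and 95.5 CPM in G3-YSD and 97.2 and 91.5 CPM in HSV, against 219 and 241 CPM in mock. Its log2 fold changes of -1.27 and -1.29 had edgeR adjusted p-values of 0.0064 and 0.00584, the smallest among the 69. The libraries of one label differed little in Smurf1, where those of Ddx58 and Ifih1 differed widely. Adarb1, an RNA-editing adenosine deaminase, had 1.53 and 2.39 CPM in HSV, against 6.54 and 5.0 CPM in mock, with a log2 fold change of -1.56 and an edgeR adjusted p of 0.0373. In G3-YSD it had 1.77 and 3.15 CPM, and its log2 fold change of -1.23 had an edgeR adjusted p of 0.0717.

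These calls were followed with 1 library left out. Each gene lost its call in some of these fits, all 5 without mock 1 or mock 2, and Smurf1 only there. Calls over all genes fell in every such fit as well, so the losses are not particular to the 5 genes. Over these fits the log2 fold changes of Smurf1 ran from -1.36 to -1.2 and those of Traf2 from 0.56 to 0.88. Those of Tradd ran from -1.27 to -0.9, of Tbkbp1 from -1.92 to -1.15, and of Adarb1 in HSV from -1.92 to -1.28. Without the filter on low counts Traf2 was not called, at 0.69 and 0.7 with edgeR adjusted p-values of 0.0865 and 0.0776. With upper quartile scaling Tbkbp1 and Adarb1 missed the threshold in HSV, at -1.29 and -1.4 with 0.0574 and 0.0714.

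Levels of the inducible members ranged widely over the libraries. The highest level exceeded the lowest by 305 times for Ifih1, 145 for Tlr3, 121 for Ddx58, 117 for Dhx58, 12.8 for Trim25, 5.09 for Ticam1 and 3.17 for Mavs. Over 12697 genes with a median of at least 1 CPM the median of this ratio was 2.02, and 3.84% exceeded 10, counting levels under 3 counts as 3 counts. Of the tested pathway genes with such a median 7 exceeded 10, and they are named here because of these values. They were Ddx60 and Rnf135, 2 of 13 cofactors of RIG-I and MDA5, and Irf7 and Irf5, 2 of 23 signalling genes. The others were Tnfaip3, an NF-kB inhibitor and 1 of 18 negative regulators, and 2 of 10 other RNA-sensing and RNA-modifying genes. These 2 were the RNA-dependent kinase Eif2ak2 and the Z-form nucleic acid sensor Zbp1. Ddx60, at 1162 times, had a lowest level of only 0.228 CPM, in hpRNA 1.

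Irf7, the factor that amplifies interferon production, had 30.7 and 125 CPM under HT-DNA, 2.68 and 83.6 under hpRNA and 37.1 and 129 under cGAMP, against 3.07 and 84.6 CPM under mock. It had 239.7 and 3.08 CPM in G3-YSD and 248 and 2.31 CPM in HSV. Its libraries thus alternated as those of the inducible members did. Ddx60 was likewise higher in library 2 than in library 1 of HT-DNA, hpRNA, cGAMP and mock, with 5.0 CPM in mock 2 and 0.341 CPM in mock 1. Its level was 261 CPM for G3-YSD 1, 265 CPM for HSV 1, and at most 6.08 CPM in the other 10 libraries. Tnfaip3 had 164 and 67.6 CPM in G3-YSD and 142 and 64.7 CPM in HSV, against 9.04 and 21.8 CPM in mock, so that both libraries of each label were above mock. Its log2 fold changes were 2.91 and 2.74 with edgeR adjusted p-values of 0.0536 and 0.0623.

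**Figure D5:**
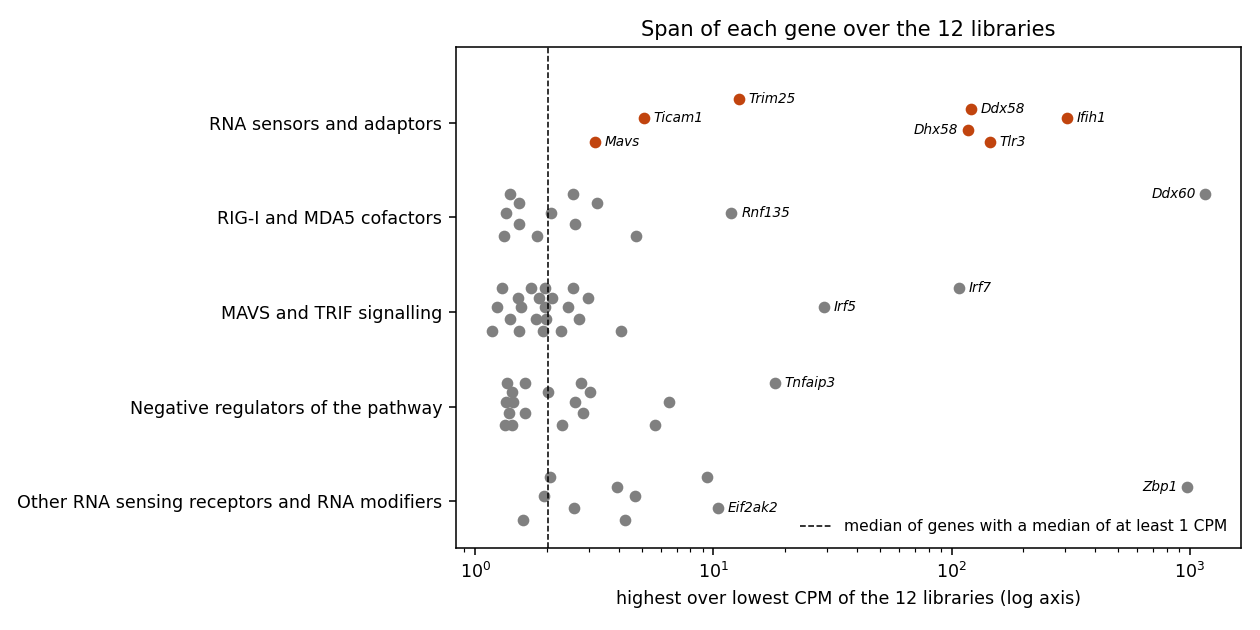
Highest over lowest CPM of the 12 libraries (log axis) for the 7 members (orange) and the tested genes of the 4 pathway lists (grey) with a median of at least 1 CPM; the dashed line is the median of 2.02 over 12697 genes, and vertical offsets within a row only separate points. Levels under 3 counts are set to 3 counts, which touches Zbp1; 4 members lie beyond 100, with Ddx60, Irf7 and Zbp1.

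Ifnb1 encodes interferon beta, the product of the signalling that the receptors start. It had 13 and 183 counts in HT-DNA, 0 and 11 in hpRNA, and 7 and 142 in cGAMP, against 0 and 30 in mock. It had 450 and 56 counts in G3-YSD and 390 and 50 in HSV. Set beside the receptors, G3-YSD 2 and HSV 2, with 56 and 50 counts of Ifnb1, had 6.92 and 5.78 CPM of Ifih1, while mock 2, with 30 counts of Ifnb1, had 68.3 CPM of Ifih1. The order of libraries by Ifnb1 and by Ifih1 was thus not the same. Its edgeR log2 fold changes against mock were 2.7 in HT-DNA, -1.53 in hpRNA, 2.39 in cGAMP, 4.08 in G3-YSD and 3.94 in HSV, with standard errors from 2.09 to 2.37 and no call.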

How the data were processed

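The authors deposited raw counts per Ensembl gene, 1 file for each of 12 libraries for mm10, made with HISAT2 and HTSeq per the submitters' processing notes, which give no versions. Per the labels' protocols, polyA RNA was sequenced in pairs of 150 bases. For the counting, an annotation release and a strand setting were not given in the sources used here. Of 54532 genes per file, 54495 matched GENCODE M21 (GRCm38), which gave symbols, positions and exon lengths.

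The deposited counts, 12650790 to 18912400 per library, were tested with edgeR 4.0.16 under R 4.3.3: default filter on low counts (16840 genes), TMM scaling, and a quasi-likelihood fit of all 12 libraries with 1 term per label (6 residual degrees of freedom, biological coefficient of variation 0.397) and Benjamini-Hochberg adjustment over all genes. A spread shared by all labels enters every comparison. CPM are on the TMM scale, and profiles were compared on log2 CPM with a prior count of 2. Exon length is the union of exons. Alternatives were upper quartile scaling, DESeq2 1.42.0, no filter, replicate blocks, fewer labels, each library left out, and the longest transcript. The members, lists and tests were chosen with earlier results of these data known. All members are named, with pathway genes called in a comparison and, for each member, the 3 genes of the most like profile, 1 of which is not reported here; predicted genes and pseudogenes were left out of that search.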

Additional observations from a re-analysis of the deposited data

How the results depend on the processing

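Ticam1 stayed lower in G3-YSD and HSV under every alternative and library left out, from -2.03 to -1.19 and from -2.19 to -1.23. Of the members, 0 were called in either comparison with the 4 libraries of the labels alone and 2, Ticam1 and Mavs, without the filter on low counts; with 1 library left out the count ran from 0 to 1. The cause was not tested. Calls over all genes, 869 in G3-YSD and 876 in HSV, were 678 and 651 with upper quartile scaling, 2208 and 2272 by DESeq2, 1894 and 1892 without the filter, 0 and 0 with 4 libraries, and with 1 library left out 0 to 652 and 0 to 682. Tlr3, at 13 counts or fewer in 3 libraries, and Ifih1, at 24 in mock 1, are limited by depth there.

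The library numbers were not shown to pair the libraries, though the nearest library to each of the 12 carried the same number. With 2 per label, deviations of same-numbered libraries correlated with those of mock at 0.379 for HT-DNA, 0.654 for hpRNA and 0.365 for cGAMP. The correlation was -0.355 for G3-YSD and -0.357 for HSV, and 0.373 between HT-DNA and hpRNA. With the number as a replicate block in all 12 libraries the counts over all genes were 1211 in G3-YSD and 1214 in HSV, Ticam1 had -1.59 and -1.67, and Mavs in hpRNA had -0.01, a reversal of a value near 0. With the block in the 8 libraries labelled HT-DNA, hpRNA, cGAMP and mock, 1 member, Tlr3, was called in HT-DNA against mock (1.45, edgeR adjusted p 0.033), cGAMP against mock (1.64, 0.0185) and HT-DNA against hpRNA (1.61, 0.0194), where edgeR called 14, 23 and 25 genes in all; Mavs in hpRNA had 0.00. Crossing the numbers of G3-YSD and HSV, chosen after seeing the data, gave 1878 and 1935 calls over all genes and 1 member each.

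Leaving out 1 library turned the sign of 56 of 168 log2 fold changes of members, none of them called. In HT-DNA against mock the range was, for Ddx58 from -0.25 to 4.87, Ifih1 from -0.62 to 5.03, Dhx58 from -0.38 to 3.96, Mavs from -0.13 to 0.04, Tlr3 from -1.18 to 4.37 and Ticam1 from -0.04 to 0.21. In hpRNA against mock the range was, for Ddx58 from -3.89 to 3.98, Ifih1 from -4.55 to 4.64, Dhx58 from -3.40 to 3.24, Mavs from -0.10 to 0.11, Trim25 from -1.07 to 1.15, Tlr3 from -2.95 to 2.78 and Ticam1 from -0.12 to 0.14. In cGAMP against mock the range was, for Ddx58 from -0.21 to 4.89, Ifih1 from -0.57 to 5.08, Dhx58 from -0.30 to 4.03, Tlr3 from -0.88 to 4.52 and Ticam1 from -0.18 to 0.08. In G3-YSD against mock the range was, for Ddx58 from -2.28 to 5.95, Ifih1 from -2.34 to 7.26, Dhx58 from -1.73 to 5.89, Trim25 from -2.15 to 1.74 and Tlr3 from -3.41 to 5.55. In HSV against mock the range was, for Ddx58 from -2.15 to 5.92, Ifih1 from -2.60 to 7.22, Dhx58 from -1.95 to 5.87, Trim25 from -2.14 to 1.77 and Tlr3 from -2.32 to 5.74. In HT-DNA against hpRNA the range was, for Ddx58 from -0.09 to 4.61, Ifih1 from -0.57 to 4.91, Dhx58 from -0.20 to 3.95, Mavs from -0.15 to 0.06, Trim25 from 0.00 to 1.71, Tlr3 from -1.0 to 4.37 and Ticam1 from -0.03 to 0.18.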
